A study of Capra hircus with 2 samples.

Results

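The cells described here were chosen as epidermal keratinocytes that carried the keratins of the basal layer and those of the spinous layer at the same time. They were 130 of 3443 kept cells in the library of the coarse type of Liaoning cashmere goat (CT-LCG) and 543 of 9608 in the library of the fine type (FT-LCG), 673 of 13051 in all. A cell was counted in when KRT14 and KRT5 made up at least 30% and less than 75% of the UMIs of KRT14, KRT5, KRT1 and KRT10, so the members were chosen on these measured values and their mixed keratins are a description. A unique molecular identifier (UMI) marks 1 captured RNA molecule, so that its amplified copies are counted once. The cells also needed at least 3000 UMIs in all and at least 100 UMIs of the 4 keratins per 10000. Cells with LOR at 5 or more per 10000, with 3 or more UMIs of TOP2A, CENPF, UBE2C and BIRC5 together, or with KRT6A, SFRP1 plus TBX1, or KRT35 at or above 20, 3 and 20 per 10000 were left out, which set aside granular, cycling, outer root sheath and hair shaft cells. Cells that met the same limits with a share of 75% or more are called basal here, and those with a share below 30% spinous. Both names, and the name intermediate, rest on this rule alone. Some members went against it, since 20.1% of those in FT-LCG and 6.15% in CT-LCG held the hair follicle gene KRT79 at 3 or more UMIs, and 3 and 1 cells held fibroblast or endothelial markers.

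Skin from the shoulder of 2 healthy Liaoning cashmere goats, 1 of each fibre type, was taken in anagen, the growth phase of the hair follicle, and measured by droplet-based single-cell RNA sequencing. No treatment, genotype or age was given for either goat. The labels of the samples do not name the coarse goat, so the fibre type came from the library name that the table of kept cells gives for each cell. Since each fibre type had 1 goat and 1 library, differences between the types have no replicate check, the fibre type and the library cannot be told apart, and no p-value is given.

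In the epidermis, basal keratinocytes sit on the basement membrane, hold it with integrins and hemidesmosomes, make KRT5 and KRT14, and divide. When a cell leaves the membrane it switches to KRT1 and KRT10, strengthens its desmosomes and enters the spinous layer, and only later makes the proteins and lipids of the cornified envelope. Notch receptors on the departing cell and their ligands on its neighbours are known to drive the first of these steps, and the upper hair follicle has a suprabasal programme of its own, marked in mice by KRT79 and GATA6.

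The intermediate cells were 3.78% of the kept cells in CT-LCG (exact binomial 95% interval 3.16% to 4.47%) and 5.65% in FT-LCG (5.20% to 6.13%). Among cells within the keratin and depth limits they were 10.9% of 1197 cells in CT-LCG (9.15% to 12.8%) and 12.4% of 4387 in FT-LCG (11.4% to 13.4%). These intervals, and the exact Poisson intervals below, cover counting error only. The intermediate cells came from the thin middle of the distribution of the keratin share. Most gated cells were at its ends, with 199 basal and 868 spinous cells in CT-LCG and 2197 and 1647 in FT-LCG. The limit on depth weighs on these shares, since it kept 1561 of the CT-LCG cells and 6033 of the FT-LCG cells.

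**Figure D1:**
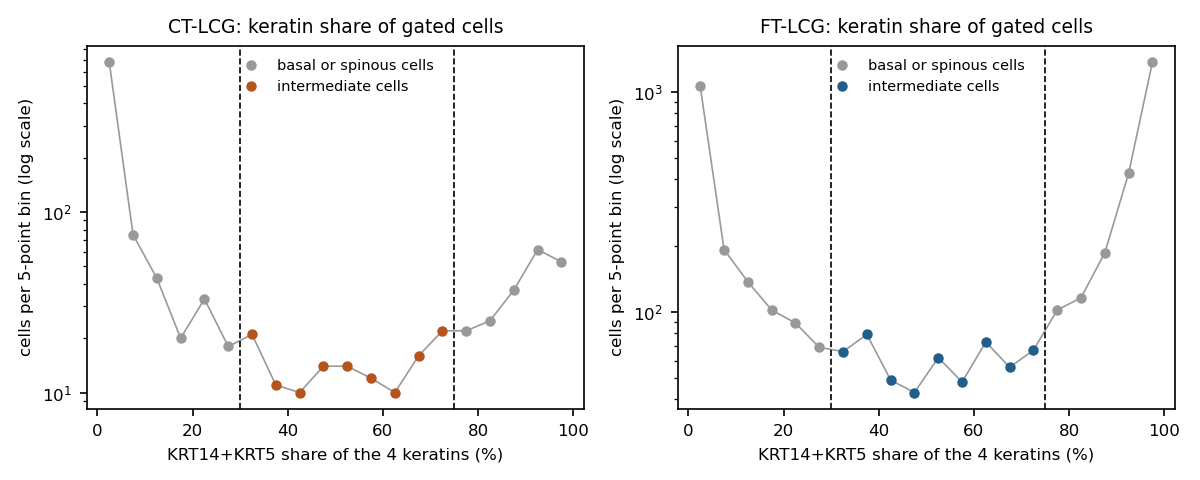
Number of cells (y axis, log scale) in each 5-point bin of the KRT14 plus KRT5 share of the 4 keratins (x axis, percent), for the cells within the limits in CT-LCG (left) and FT-LCG (right). Dashed lines mark 30% and 75%; the coloured points between them are the 130 and 543 intermediate cells, and the counts are highest at the basal and spinous ends.

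The median intermediate cell of CT-LCG held 13680 UMIs from 2942 genes, and that of FT-LCG 10140 UMIs from 2458 genes. Both depths were between those of the neighbours, which were 12310 UMIs (basal) and 18980 UMIs (spinous) in CT-LCG and 8999 and 12810 UMIs in FT-LCG. The deepest intermediate cell had 38600 UMIs (CT-LCG) and 141274 (FT-LCG). No doublet caller was run, and a droplet that held a basal and a spinous cell would also pass the rule. The part of such droplets in the results was not tested beyond leaving out the deepest 10% of cells. Of the kept cells, 11 barcodes occurred in both libraries, and 0 of them were intermediate cells.

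RNA free in the suspension can also place keratins in a droplet. In the barcodes that the authors did not keep, the 4 keratins stood at 405 per 10000 (CT-LCG) and 406 (FT-LCG). Their KRT14 plus KRT5 share was 21.9% and 47.3%, and in FT-LCG this was inside the window of the rule. These barcodes, 2659 and 1589 with medians of 716 and 607 UMIs, were among the cells that the paper separated before quality control. They are not a sample of empty droplets, so free RNA and the RNA of poor cells cannot be told apart in them. In cells that held fibroblast or endothelial markers, which should lack these keratins, the median of the 4 keratins was 32.7 per 10000 in CT-LCG (54 cells) and 21.1 in FT-LCG (162 cells), below the limit of 100, although 1 and 3 of these cells passed the rule and are among the intermediate cells. The intermediate cells had medians of 417 and 474 per 10000.

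The keratins that defined the cells are given first, as a description. KRT14 stood at 173 UMIs per 10000 in the intermediate cells of CT-LCG, against 241 in basal and 10.3 in spinous cells. In FT-LCG it stood at 158, against 296 and 17.7. KRT10, a keratin of suprabasal layers, was at 127 in CT-LCG (basal 18.7, spinous 339) and at 162 in FT-LCG (basal 16.03, spinous 434). By the rule, nearly all intermediate cells, 129 of 130 and 541 of 543, held UMIs of all 4 keratins. The same was true of 199 of 199 and 2093 of 2197 basal cells, where KRT1 and KRT10 were low. KRT14 was found in 96.9% of the CT-LCG and 98.0% of the FT-LCG intermediate cells after each cell had been thinned to 3000 UMIs (99.2% and 100% before thinning). In cells with fibroblast or endothelial markers the thinned shares were 64.0% of 50 cells and 75.7% of 148, at median depths of 6798 and 9563 UMIs. These cells, used for background below too, were not the same set as the 54 and 162 cells above. The presence of a keratin UMI therefore says little here, and the levels carry the description.

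The members of each keratin pair did not shift in step. KRT5 per KRT14 UMI was 0.440 in the intermediate cells of CT-LCG, lower than in basal cells (0.533), and 0.703 in those of FT-LCG, higher than in basal cells (0.504). In spinous cells it was 0.3585 (CT-LCG) and 0.718 (FT-LCG). KRT1 per KRT10 was 0.953 in CT-LCG (basal 0.906, spinous 0.684) and 0.502 in FT-LCG (basal 0.671, spinous 0.473). In both pairs the 2 libraries thus differed in the intermediate cells, but not there alone. KRT1 per KRT10 was also higher in CT-LCG in both neighbours, and KRT5 per KRT14 was also lower in CT-LCG in spinous cells. Relative to basal cells, each ratio of the intermediate cells was higher in 1 library and lower in the other.

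The keratins of the cells just inside and just outside the limits are given as a description. In CT-LCG, the 18 cells with a share of 25% to 30% had KRT14 at 81.0 and KRT10 at 163 per 10000, and the 21 cells at 30% to 35% had 126 and 205. At the upper limit, the 22 cells at 70% to 75% had KRT14 at 204 and KRT10 at 54.3, and the 22 at 75% to 80% had 190 and 50.3. In FT-LCG the 69 cells just outside the lower limit had KRT14 at 83.5 and KRT10 at 274, and the 66 just inside had 71.2 and 221. The 67 cells just inside the upper limit had 254 and 99.1, and the 102 just outside had 241 and 70.9.

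LY6D, a small membrane-anchored protein of keratinocytes, was the marker of these cells that the rule did not use, and it did not set them apart in both libraries. In CT-LCG it stood at 21.1 per 10000 in intermediate cells, against 16.2 in basal and 11.1 in spinous cells, which gave a log2 ratio to basal cells of 0.38 (0.32 to 0.44). In FT-LCG it was at 12.1, against 12.9 and 10.5, and the log2 ratio to basal cells was -0.09 (-0.12 to -0.05). LY6D was thus above both neighbours in CT-LCG and between them in FT-LCG, so in FT-LCG the data go against it as a marker of these cells as a whole. Without the cells with 3 or more KRT79 UMIs, described below, LY6D in FT-LCG was at 15.6, above basal (13.7) and spinous cells (11.6). Across cells its level ranged from 0 to 108 per 10000 with a median of 14.3 in CT-LCG, and from 0 to 93.4 with a median of 6.89 in FT-LCG. After thinning it was present in 80% of CT-LCG and 69.1% of FT-LCG intermediate cells (87.7% and 83.4% unthinned), and in 26.0% and 10.8% of cells with fibroblast or endothelial markers (32.0% and 23.7% unthinned), so that it was above background in both libraries. The barcodes that were not kept held LY6D at 8.85 and 7.28 per 10000. Along the keratin share, LY6D peaked at 25.5 per 10000 in the CT-LCG cells with a share of 30% to 45%, while the FT-LCG cells of that range held its lowest level inside the window, 10.7.

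**Figure D2:**
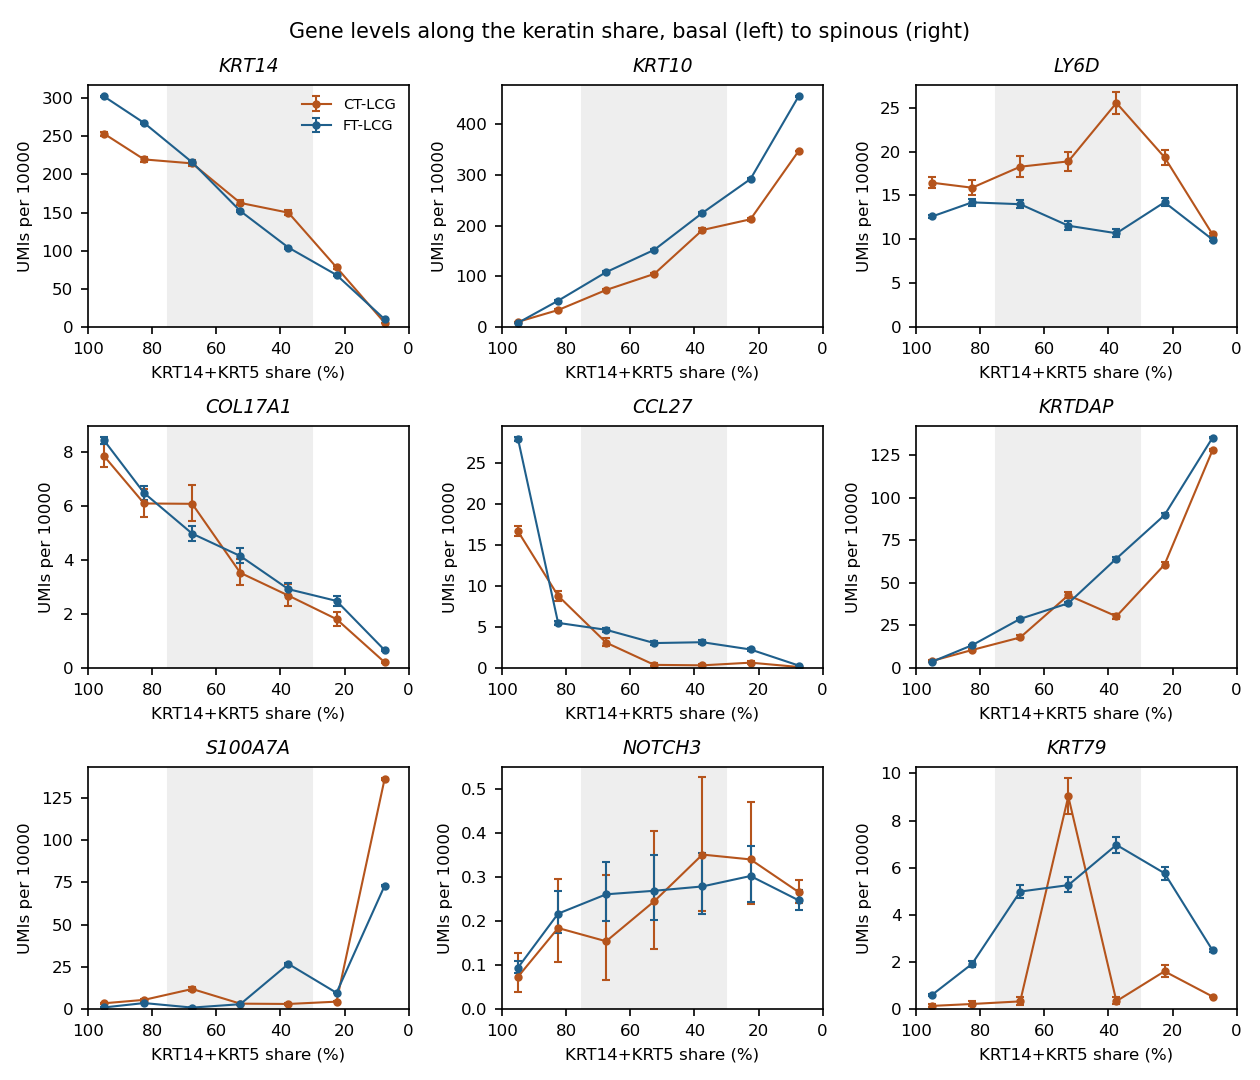
Levels of 9 genes in UMIs per 10000 (y axes, linear from 0) over 7 bins of the KRT14 plus KRT5 share (x axes, percent, from basal at the left to spinous at the right), for CT-LCG and FT-LCG. Points are sums over the cells of a bin, bars are exact Poisson 95% intervals, and the grey band marks the intermediate cells; LY6D reaches 25.5 (CT-LCG) and 10.7 (FT-LCG) in the band from 30% to 45%, CCL27 is at 16.7 and 27.9 in the first bin, and S100A7A is at 136 and 73.0 in the last.

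Of 10084 genes with at least 50 UMIs over the 3 classes in each library, leaving out the genes of the rule, 216 (2.14%) were at least 2-fold higher in intermediate than in basal cells in both libraries, and 126 (1.25%) were at least 2-fold lower. Against spinous cells, 332 genes (3.29%) were at least 2-fold higher and 285 (2.83%) at least 2-fold lower. Because the cells were chosen on keratins that other genes follow, these counts are descriptions without a test. For 1374 genes that differed at least 2-fold between basal and spinous cells in the same direction in both libraries, the place of the intermediate level between the 2 was computed, with 0% at the basal and 100% at the spinous level. Its median was 39.4% (CT-LCG) and 45.7% (FT-LCG). The level was on the basal side of the middle for 721 genes in CT-LCG (743 in FT-LCG) and on the spinous side for 494 (552). It was beyond the basal level for 123 and 45 genes, and beyond the spinous level for 36 and 34. The genes did not sit at 1 common place.

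Some genes that hold the cell to the basement membrane were well below their basal level. Of 12 measured genes of adhesion and basement membrane, 6 were at least 2-fold lower than in basal cells (all genes 1.25%), 0 were higher, and 7 were still at least 2-fold higher than in spinous cells (all genes 3.29%). The median log2 ratio to basal cells was -1.07 (CT-LCG) and -1.16 (FT-LCG), beside 0.02 and -0.01 over all genes. To spinous cells the median was 1.82 and 1.96, beside 0.09 and 0.12 over all genes. COL17A1 and DST encode the transmembrane collagen and the plakin that tie hemidesmosomes to keratin. COL17A1 stood at 3.96 per 10000 in CT-LCG (basal 7.21, spinous 0.317) and at 4.01 in FT-LCG (basal 8.08, spinous 0.896). DST was at 0.978 (2.25 and 0.122) and 1.20 (2.77 and 0.187). Their positions of 47.2% and 56.6% for COL17A1 and of 59.8% and 60.6% for DST put them near the middle of the way.

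Other genes of the same structures were further along. ITGB4, the integrin chain of the hemidesmosome, was at 0.1397 per 10000 (CT-LCG) and 0.363 (FT-LCG), against 0.703 and 1.42 in basal cells, positions of 81.3% and 77.4%. Its partner ITGA6 was nearer the middle, at 53.8% and 57.8%. LAMB3, a chain of the laminin that anchors basal cells, was at 93.7% and 81.9%, with 0.0168 and 0.134 per 10000 against 0.223 and 0.6503 in basal cells. In CT-LCG the LAMB3 level came from 3 UMIs (interval 0.00346 to 0.049), and that of ITGB4 from 25. Within 1 adhesion complex, then, the levels of the parts differed in how far they were from basal cells.

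Of 12 measured genes listed for basal identity, 4 were at least 2-fold lower than in basal cells (all genes 1.25%) and 5 at least 2-fold higher than in spinous cells (3.29%), while 0 were past the fold in the other directions. CCL27, a chemokine that draws T cells to the epidermis, stood apart. It was at 13.8 per 10000 in basal, 1.16 in intermediate and 0.168 in spinous cells of CT-LCG, and at 24.0, 3.65 and 0.562 in FT-LCG. The log2 ratios to basal cells were -3.58 and -2.71, and the positions 92.7% and 86.8%. Much of the difference lay within the basal class. In CT-LCG CCL27 was at 16.7 per 10000 in cells with a share of at least 90%, 8.80 at 75% to 90% and 3.095 at 60% to 75%. In FT-LCG the same bins held 27.9, 5.50 and 4.66. In contrast S100A2, a calcium-binding protein of basal cells, was close to its basal level, at 43.4 per 10000 in CT-LCG (basal 55.0, spinous 18.3) and 65.1 in FT-LCG (basal 83.3, spinous 23.2). TP63, the transcription factor that maintains the stratified epithelium, was at 0.922 in CT-LCG (basal 0.867, spinous 0.512) and 0.681 in FT-LCG (basal 0.882, spinous 0.299), within 2-fold of basal cells in both.

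Among the genes furthest below basal cells by rule were also CTGF, SERPINH1, KRTCAP3, IGFBP6, CTNNAL1, ADIRF, JAG2 and POSTN. POSTN, a matricellular protein, was at 3.795 per 10000 in CT-LCG (basal 14.2, spinous 0.337) and 6.23 in FT-LCG (basal 18.6, spinous 0.866). By the smaller of the ratios in the 2 libraries it was also the furthest above spinous cells among genes with 100 or more UMIs, with log2 ratios of 3.49 and 2.85. CTGF, a matricellular protein of adhering cells, was at 0.0727 and 0.467 per 10000, against 0.945 and 1.91 in basal cells. SERPINH1, a chaperone of collagen, was at 0.0727 and 0.196, against 0.465 and 0.707. Above spinous cells by the same rule were ITGA6, COL17A1 and DST again, with VWA1, PTRF and C1R.

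The first genes of the suprabasal programme were mostly between the neighbours. Of 14 measured early suprabasal genes, 8 were at least 2-fold higher than in basal cells (all genes 2.14%) and 5 at least 2-fold lower than in spinous cells (all genes 2.83%). The median log2 ratio in CT-LCG was 1.44 to basal and -1.28 to spinous cells, and in FT-LCG 1.83 and -0.85. By position, which is on a linear scale, the medians of 10 genes were 27.8% and 37.5%, with SERPINB5 past the middle in both libraries, and DMKN and KRT80 in FT-LCG. Some of this came with the cells that held 3 or more KRT79 UMIs, described below. Without them DMKN in FT-LCG was at 26.5 per 10000 (basal 5.86, spinous 56.0), nearer to basal cells. The log2 ratio to basal cells of CST6, 1 of the 8, was then -0.23 in CT-LCG and 1.53 in FT-LCG. KRTDAP, a secreted protein of differentiating keratinocytes, was at 31.0 per 10000 in CT-LCG (basal 6.50, spinous 124) and 43.9 in FT-LCG (basal 5.42, spinous 130), positions of 20.9% and 31.0%. It was found in 90.8% and 92.3% of thinned cells, but the cells with fibroblast or endothelial markers reached 70.0% and 46.6% (unthinned 98.5% and 98.7%, against 92.0% and 87.8%). Of the secreted suprabasal proteins suprabasin and dermokine, SBSN was at 34.8 (12.4 and 94.2) and 42.9 (11.98 and 82.1), and DMKN at 19.6 (5.58 and 57.1) and 36.2 (7.13 and 61.7). KRT2, a keratin of the upper spinous layer, was nearer to basal cells on the linear scale, at 11.1% and 25.2% of the way. It was at 1.01 per 10000 (0.207 and 7.45) and 1.46 (0.1501 and 5.36). Its log2 ratios to basal and spinous cells were 2.28 and -2.88 in CT-LCG. In FT-LCG they were 3.28 and -1.87, nearer to spinous cells.

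Most late genes were well below their spinous level. Of 15 measured genes of the cornified envelope and granular layer, 10 were at least 2-fold lower than in spinous cells (all genes 2.83%). The median log2 ratio was -2.70 to spinous and 0.56 to basal cells in CT-LCG, and -2.16 and 1.06 in FT-LCG. On the linear scale of the position the median of 14 genes was 9.14% (CT-LCG) and 10.2% (FT-LCG), and in FT-LCG the genes of the plakin EVPL and the protease KLK10 were as far as 61.2% and 113%. Against basal cells, 4 were at least 2-fold higher (all genes 2.14%), namely CSTA, IVL, KLK7 and TGM5, and 1, TGM3, was lower (1.25%). IVL was thin in CT-LCG, with 0, 2 and 3 UMIs in intermediate cells with shares of 30% to 45%, 45% to 60% and 60% to 75%. Basal cells there held 0 (75% to 90%) and 1 (90% or more). KLK7, a protease that later sheds corneocytes, was at 0.917 per 10000 in CT-LCG (basal 0.207, spinous 3.48) and 1.25 in FT-LCG (basal 0.260, spinous 5.12). In CT-LCG 123 of the 164 KLK7 UMIs lay in cells with a share of 45% to 60%. KLK5, its activator, was at 0.0671 in CT-LCG (basal 0.0898, spinous 2.08) and 0.0951 in FT-LCG (basal 0.0630, spinous 1.37), positions of -1.10% and 2.51%. CNFN, a cornified envelope protein, was at -4.36% and 2.14%, and SPRR4, another, at 2.19% and 6.86%. The water channel AQP5 was among the genes furthest below spinous cells, at 0.0112 and 0.0149 per 10000 in intermediate cells, 0.0117 and 0.0112 in basal cells and 0.431 and 0.696 in spinous cells. The late genes and the early suprabasal genes thus differed in place by their median, although both had spinous cells as their high end.

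S100A7A, an antimicrobial S100 protein, showed how a few cells can set such a level. It was at 5.67 per 10000 in CT-LCG (basal 4.17, spinous 128) and at 10.5 in FT-LCG (basal 1.43, spinous 64.9). In FT-LCG the 10% of intermediate cells with the most S100A7A held 95.4% of its UMIs, and the median cell had 0.488 per 10000. Its share in thinned intermediate cells of CT-LCG, 62.3% (96.2% unthinned), was below the 80% (96% unthinned) of cells with fibroblast or endothelial markers, and was thus at background. In FT-LCG the share was 26.7% (53.4% unthinned), against 19.6% (49.3% unthinned) in those cells and 25.03% in basal cells.

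Barrier lipid genes were mixed. Of 19 measured, 3 (ACER1, CERS3 and PNPLA1) were at least 2-fold higher than in basal cells (all genes 2.14%), 7 were at least 2-fold lower than in spinous cells (2.83%), and 1 (CERS4) was higher (3.29%). CERS3, a ceramide synthase, was at 0.129 per 10000 in CT-LCG (basal 0.0625, spinous 0.338) and 0.123 in FT-LCG (basal 0.0492, spinous 0.264). PNPLA1, which completes the acylceramides, was at 0.173 (0.0391 and 0.200) and 0.126 (0.0328 and 0.227), positions of 84.6% and 48.5%. ALOX12B, the lipoxygenase that acts on them, was at 0 UMIs in 1789339 UMIs of CT-LCG, where 3 counts would be allowed, and at 0.00297 per 10000 in FT-LCG, against 0.0825 and 0.107 in spinous cells. Of 17 measured sterol synthesis genes, 1 (INSIG1) was at least 2-fold higher than in basal cells (all genes 2.14%) and 2 (INSIG1 and MSMO1) were lower than in spinous cells (2.83%).

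**Figure D3:**
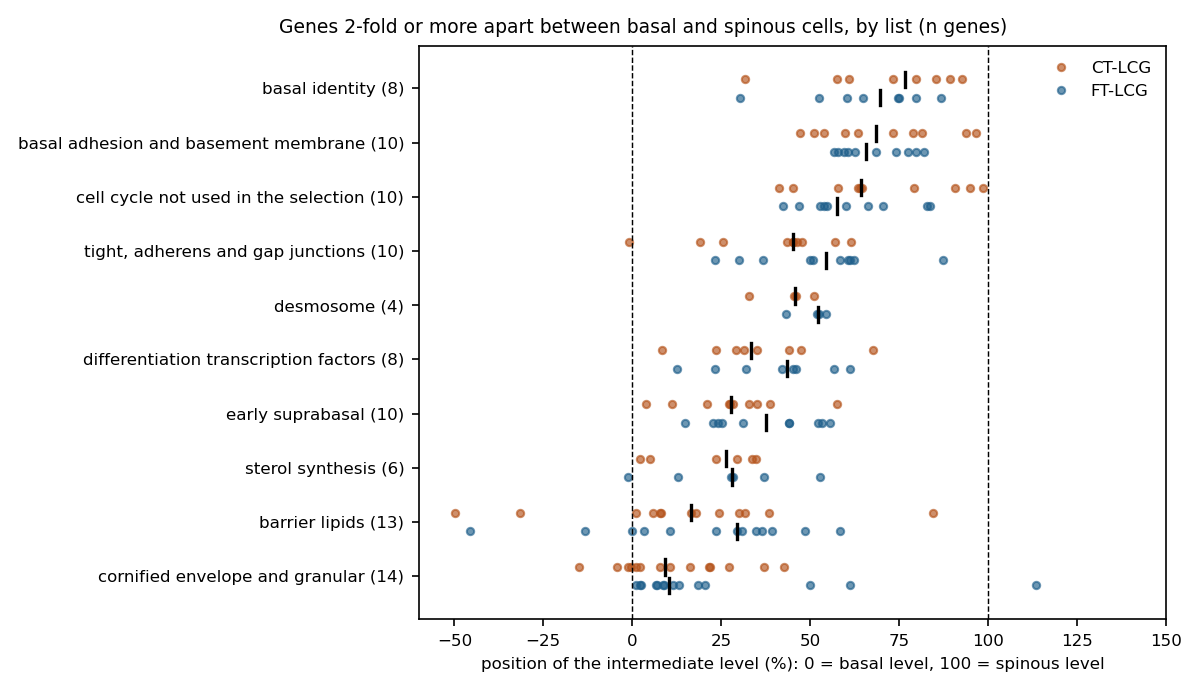
Place of the intermediate level between the basal level (0%) and the spinous level (100%, x axis) for the genes of 10 lists that differed at least 2-fold between basal and spinous cells in both libraries, 1 point per gene and library, with black bars at the medians. Basal identity genes have medians of 76.6% (CT-LCG) and 69.8% (FT-LCG), early suprabasal genes 27.8% and 37.5%, and cornified envelope genes 9.14% and 10.2%; the lists were chosen with earlier results of these data known.

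Some genes of cell contacts were past the fold. Of 12 measured desmosome genes, 1 was at least 2-fold higher than in basal cells (all genes 2.14%), 0 were lower and 2 were at least 2-fold higher than in spinous cells (all genes 3.29%). DSC1, the desmocollin of suprabasal layers, was at 2.57 per 10000 in CT-LCG (basal 1.17, spinous 4.25) and 2.61 in FT-LCG (basal 0.912, spinous 4.18). DSG3, the desmoglein of the lower layers, was at 0.252 (0.359 and 0.0353) and 0.174 (0.313 and 0.0583). Of 21 measured genes of tight, adherens and gap junctions, 3 were at least 2-fold higher than in basal cells (all genes 2.14%). These were the tight junction genes OCLN and CGN and the adherens junction gene NECTIN4. The P-cadherin gene CDH3 and the connexin gene GJB6 were at least 2-fold higher (all genes 3.29%), and the claudin gene CLDN4 at least 2-fold lower (2.83%), than in spinous cells. NECTIN4 was at 0.363 in CT-LCG (basal 0.0937, spinous 0.679) and 0.541 in FT-LCG (basal 0.154, spinous 0.792).

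Of 11 measured genes of the Notch pathway, the receptor gene NOTCH3 was at least 2-fold higher than in basal cells (all genes 2.14%), and the ligand gene JAG2 at least 2-fold lower (1.25%). NOTCH3 stood at 0.257 per 10000 in CT-LCG (basal 0.113, spinous 0.270) and 0.269 in FT-LCG (basal 0.116, spinous 0.254), so that it was within 0.1 of the spinous level on the log2 scale. JAG2 was at 0.157 (0.488 and 0.0550) and 0.226 (0.686 and 0.0921). The ligand gene DLL1 was at 0.0671 (0.129 and 0.0185) and 0.122 (0.301 and 0.0422), at least 2-fold above spinous cells along with JAG2 (all genes 3.29%). NOTCH1, a further receptor gene, was above both neighbours, at 0.425 in CT-LCG (basal 0.219, spinous 0.229) and 0.584 in FT-LCG (basal 0.395, spinous 0.357). Their target HES1 was at 4.44 (4.29 and 3.25) and 5.07 (3.11 and 3.60), less than 2-fold from either neighbour in both libraries.

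Of 27 measured transcription factors of epidermal differentiation, CEBPA, GRHL3 and ZNF750 were at least 2-fold higher than in basal cells (all genes 2.14%), OVOL2 higher than in spinous cells (3.29%), and ELF5 lower than in spinous cells (2.83%). ZNF750, which promotes late differentiation, was at 1.00 per 10000 in CT-LCG (basal 0.488, spinous 0.971) and 1.32 in FT-LCG (basal 0.638, spinous 1.46). It was thus at the spinous level in CT-LCG and slightly below it in FT-LCG. The FT-LCG intervals were 1.233 to 1.408 (intermediate) and 1.412 to 1.51 (spinous). CEBPA was between, at 1.498 (0.652 and 3.56) and 2.09 (0.619 and 3.89). ELF5 was near the basal end, at 8.30% and 12.5% of the way. Among 12 measured genes of the EGF family and its receptors, the ligand genes AREG, BTC and HBEGF were at least 2-fold higher than in basal cells (all genes 2.14%). HBEGF was at 3.24 in CT-LCG (basal 1.49, spinous 5.05) and 2.26 in FT-LCG (basal 0.835, spinous 3.36). EREG, a further ligand gene, was at least 2-fold lower than in spinous cells, at 0.106 in CT-LCG (basal 0.0391, spinous 0.355) and 0.0149 in FT-LCG, from 10 UMIs (basal 0.0155, spinous 0.1415).

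Of 20 measured cell cycle genes that the rule had not used, 2 (TYMS and RRM2, both for the supply of nucleotides) were at least 2-fold lower than in basal cells (all genes 1.25%) and 0 higher, with a median log2 ratio of -0.70 in each library, and 4 (CCND2, GINS2, MCM2 and STMN1) were at least 2-fold higher than in spinous cells (all genes 3.29%). CCND2, a cyclin of the start of the cycle, was at 0.414 per 10000 in CT-LCG (basal 0.793, spinous 0.139) and 0.749 in FT-LCG (basal 1.44, spinous 0.291). TYMS was at 0.0224 in CT-LCG, from 4 UMIs (basal 0.125, spinous 0.0233), and at 0.0461 in FT-LCG (basal 0.157, spinous 0.0237), a log2 ratio to spinous cells of 0.97. Cycling cells had been removed from all 3 classes, so these values describe what was left below that limit.

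Of 10 measured S100 genes, S100A4 and S100A13 were at least 2-fold lower than in basal cells (all genes 1.25%), S100A2, S100A4, S100A10 and S100A13 higher than in spinous cells (3.29%) and S100A7A lower (2.83%). Of 11 measured cytokine genes, TGFB1 and TGFB2 were at least 2-fold higher than in spinous cells (all genes 3.29%) and CCL20, a chemokine, was lower (2.83%). CCL20 stood at 6.48 per 10000 in CT-LCG (basal 2.32, spinous 15.7) and 8.52 in FT-LCG (basal 6.23, spinous 20.3). In CT-LCG 1 cell held 470 of its 1159 UMIs, and the median cell was at 0 in both libraries. Of 23 immediate early genes, which dissociation of tissue is known to induce, NR4A1 was at least 2-fold higher than in basal cells (all genes 2.14%) and SOCS3 higher than in spinous cells (3.29%). FOS was at 26.9 in CT-LCG (basal 26.4, spinous 20.8) and 40.7 in FT-LCG (basal 32.0, spinous 27.7). Of 18 heat shock and stress genes, 0 passed in any direction. The 4 wound keratins of the list were not analysed here.

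Few genes had their extreme in the intermediate cells. In both libraries, 18 of 10084 genes (0.179%) were at least 1.5-fold above both neighbours and 15 (0.149%) at least 1.5-fold below both. Both counts depended on the setting, with 59 and 40 in thinned cells, of which 4 and 5 were shared. The 10 furthest above among genes with 100 or more UMIs were SLC40A1, KRT79, SLC39A8, ISYNA1, BARX2, ADGRL3, SH3D21, NAALADL2, NOTCH1 and NOV. The last 3 of these missed 1.5-fold in FT-LCG. NAALADL2 missed it over spinous cells with a log2 ratio of 0.57, and NOTCH1 and NOV over basal cells with 0.57 and 0.56. KRT79 stood at 3.31 per 10000 in CT-LCG (basal 0.164, spinous 0.598) and 5.76 in FT-LCG (basal 0.834, spinous 2.91), log2 ratios to the higher neighbour of 2.47 and 0.99. SLC40A1, the iron exporter ferroportin, was at 0.173 (0.0313 and 0.0861) and 0.785 (0.152 and 0.373). In CT-LCG, 29 of its 31 UMIs lay in the 8 cells with 3 or more KRT79 UMIs, described below, and without such cells its log2 ratio to the higher neighbour turned to -1.96 in CT-LCG and was 0.81 in FT-LCG. SLC39A8 held 22 of its 28 UMIs of CT-LCG in the same 8 cells. Without such cells its log2 ratio to the higher neighbour was -0.28 (CT-LCG) and 0.92 (FT-LCG). BARX2, a homeobox factor, was at 0.727 (0.387 and 0.435) and 1.57 (0.747 and 0.843). Without such cells BARX2 was at 0.413 (0.312 and 0.332) and 0.941 (0.647 and 0.527). Both values were then less than 1.5-fold above the higher neighbour. Of 9 measured hair follicle genes, GATA6 and KRT79 were at least 1.5-fold above both neighbours (all genes 0.179%), while KRT19 was at least 2-fold lower than in basal cells (all genes 1.25%), with log2 ratios of -3.78 and -1.01. GATA6 was at 0.151 (0.0273 and 0.0126) and 0.217 (0.0841 and 0.0486). Of its 27 UMIs in CT-LCG, 20 lay in the 8 cells with 3 or more KRT79 UMIs. Without such cells GATA6 was at 0.0419 (0.024 and 0.00557) and 0.0927 (0.0621 and 0.0147). The follicle genes KRT79 and GATA6 stood out although the rule had removed the root sheath and hair shaft cells that its own genes mark.

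The genes furthest below both neighbours, among those with 100 or more UMIs, were PTPRZ1, ADTRP, TGM3, TREX1 and RASGRP1. TGM3, a transglutaminase of the envelope and of the hair follicle, was at 0.330 per 10000 in CT-LCG (basal 0.703, spinous 1.15) and 0.268 in FT-LCG (basal 0.912, spinous 0.441). RASGRP1 was at 0.00559 in CT-LCG, a single UMI, and at 0.0297 in FT-LCG. The counts behind this group were small, and the direction of PTPRZ1 (CT-LCG) and ADTRP (FT-LCG) turned under some settings.

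KRT79 lay in few cells. In CT-LCG 16.2% of intermediate cells had a KRT79 UMI, the 10% of cells with the most held 98.7% of the UMIs, and 1 cell held 190 of the 592 UMIs. After thinning the shares were 8.46% (CT-LCG) and 25.1% (FT-LCG), against 8% and 3.38% in cells with fibroblast or endothelial markers (unthinned 16.2% and 35.7%, against 16% and 8.11%). The share in CT-LCG was thus at background, and its level came from a handful of cells. Cells with 3 or more KRT79 UMIs, a limit chosen after the values had been seen, were 8 of 130 (6.15%) in CT-LCG and 109 of 543 (20.1%) in FT-LCG. They were 1.51% of basal and 3.23% of spinous cells in CT-LCG, and 3.14% and 10.99% in FT-LCG. The KRT79 cells had medians of 15380 and 11640 UMIs, against 13530 and 9816 in the other intermediate cells.

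Among genes chosen after their values had been seen, SOX9, BARX2 and GATA6 were higher in the KRT79 cells than in the other intermediate cells of both libraries. BARX2 is from the list of differentiation transcription factors. Other listed hair follicle genes, KRT19 among them, were not compared between these cells. SOX9, a factor of the hair follicle, was at 4.59 per 10000 in the KRT79 cells of CT-LCG and at 0.455 in the other cells, and at 5.13 and 1.79 in FT-LCG. BARX2 was at 5.09 and 0.413 in CT-LCG, and at 3.32 and 0.941 in FT-LCG. GATA6 was at 1.67 and 0.0419 in CT-LCG, and at 0.566 and 0.0927 in FT-LCG. The intervals of these levels did not overlap between the kinds of cell. Early suprabasal genes were also high in them, with KRTDAP at 126 and 24.2 in CT-LCG and 75.8 and 32.6 in FT-LCG. CST6, an inhibitor of cathepsins, was at 82.0 and 1.40 in CT-LCG, and at 125 and 15.5 in FT-LCG.

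Other genes were low in the KRT79 cells. LY6D was at 0.500 per 10000 in those of CT-LCG (0.184 to 1.09) and at 22.6 in the other intermediate cells (21.9 to 23.4). In FT-LCG it was at 2.23 (2.02 to 2.46) and 15.6 (15.29 to 15.99). Without the KRT79 cells, LY6D in FT-LCG was 15.6 in intermediate, 13.7 in basal and 11.6 in spinous cells, and its log2 ratio to basal cells turned from -0.09 to 0.19. In CT-LCG the same ratio was 0.44 in place of 0.38. LY6D was therefore above both neighbours in both libraries once the KRT79 cells were set aside, and LY6D was also low in the KRT79 cells of the basal and spinous classes, at 1.91 and 1.73 in FT-LCG and at 0.331 and 2.14 in CT-LCG. COL17A1 was at 0.167 and 4.23 in CT-LCG, and at 1.74 and 4.82 in FT-LCG. CCL27 was at 0.167, from 2 UMIs, and 1.23 in CT-LCG, and at 0.374 and 4.82 in FT-LCG.

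The keratins by which the KRT79 cells entered the window also differed. In CT-LCG they held KRT14 at 8.50 and KRT5 at 102 per 10000, where the other intermediate cells held 185 and 74.4. In FT-LCG the values were 59.8 and 98.9, against 193 and 116. KRT1 was at 19.2 against 129 in CT-LCG, and at 35.3 against 97.7 in FT-LCG, while KRT10 was at 112 against 129 and at 120 against 177. The 8 KRT79 cells of CT-LCG thus reached a middle share mainly through KRT5 and KRT10. In those of FT-LCG KRT5 and KRT10 were also the highest of the 4, with KRT14 and KRT1 at higher levels than in CT-LCG. In the other intermediate cells KRT14 was above KRT5 in both libraries. With the KRT79 cells left out of all 3 classes, 8 genes in place of 18 were at least 1.5-fold above both neighbours, 3 of them shared, and the intermediate cells were 10.5% of the gated cells (CT-LCG) and 10.8% (FT-LCG). The log2 ratio of CST6 to basal cells was then -0.23 in CT-LCG, against 1.53 in FT-LCG.

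**Figure D4:**
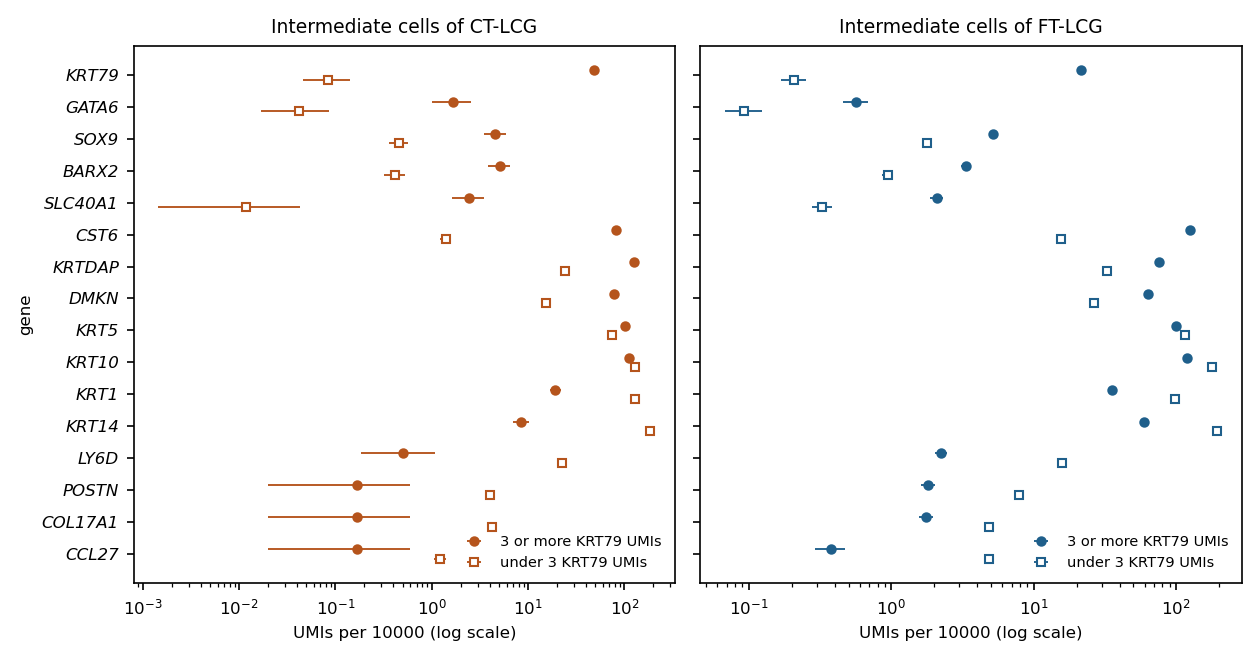
Levels of 16 genes (rows) in UMIs per 10000 (x axes, log scale) in intermediate cells with 3 or more KRT79 UMIs (filled circles, 8 cells of CT-LCG and 109 of FT-LCG) and in the other intermediate cells (open squares, 122 and 434 cells), with exact Poisson 95% intervals. KRT79, by which the cells were split, and GATA6, SOX9, BARX2 and CST6 are to the right in the KRT79 cells of both libraries, and LY6D, KRT14, POSTN, COL17A1 and CCL27 to the left.

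Other genes also varied among the intermediate cells beyond counting error. In CT-LCG the leading genes by variation beyond counting were CCL27, S100A7A and HSPA6, an inducible heat shock gene. The 10% of cells with the most CCL27 held 80.2% of its UMIs. In FT-LCG the leading genes were VIM, TFPI2 and PHLDA2, and the inner root sheath genes KRT25 and TCHH were among the first 7, but 1 cell held 1302 of the 1608 KRT25 UMIs and 1 cell 463 of the 689 TCHH UMIs. For VIM, 1 cell held 417 of 864 UMIs. KRT25 was found in 16.02% of thinned FT-LCG cells (40.7% unthinned), below the 23.7% (47.3% unthinned) of cells with fibroblast or endothelial markers, so that its share was at background. That of TCHH was 10.3% (26.7% unthinned), close to the 10.1% (23.7% unthinned) of those cells.

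Markers of other cell types were scarce. Of 6 listed fibroblast markers, 4 were detected in the intermediate cells of CT-LCG, with LUM and PDGFRA at 0, and 5 in FT-LCG, with PDGFRA at 0. Their summed level was 0.0615 per 10000 in CT-LCG (basal 0.137, spinous 0.0681) and 0.106 in FT-LCG (basal 0.111, spinous 0.116), led by COL1A1. Of 6 endothelial markers, 5 and 6 were detected, led by PECAM1 in CT-LCG and VWF in FT-LCG, and VWF was at 0 in CT-LCG. They summed to 0.0894 in CT-LCG (basal 0.0391, spinous 0.0538) and to 0.0327 in FT-LCG (basal 0.0440, spinous 0.0642). Of 8 macrophage or dendritic markers, 4 were at 0 in CT-LCG (CSF1R, C1QA, C1QB and CD207) and 2 in FT-LCG (C1QA and C1QB), with sums of 0.184, led by CD68, and 0.489, led by CD74. The sums of basal and spinous cells were 0.1797 and 0.115 in CT-LCG, and 0.960 and 0.185 in FT-LCG. All 5 mast cell markers were at 0 in CT-LCG, and 3 of 5 (CPA3, MS4A2 and HDC) in FT-LCG, where the sum was 0.00446. T cell markers summed to 0.0112 in CT-LCG (basal 0.00391, spinous 0.0138) and 0.0342 in FT-LCG (basal 0.0142, spinous 0.0275), with 1 of 5 and 5 of 5 detected, and CD3E leading. Melanocyte markers summed to 0.0279 in CT-LCG (basal 0.0234, spinous 0.0138) and 0.00594 in FT-LCG (basal 0.0164, spinous 0.0038), led by PMEL, with TYRP1, DCT and TYR at 0 in both.

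Muscle and pericyte markers had the highest sum in the intermediate cells of FT-LCG among these lists, leaving out the sebocyte list. They summed to 0.569 per 10000 there, against 0.225 in basal and 0.0549 in spinous cells, with all 6 detected and TAGLN the most abundant. In CT-LCG the sum was 0.0727, below the 0.133 of basal cells and above the 0.0293 of spinous cells. There 4 of 6 were detected, with TAGLN leading and MYH11 and DES at 0. In FT-LCG, 5 of 543 cells held 3 or more of these UMIs, and their part in the results was not tested on its own. Leaving out every cell with 3 or more UMIs of the other types' markers gave 23 genes above both neighbours in place of 18, of which 15 were shared. The sebocyte list did not separate cell types, because MGST1 and PLIN2 are abundant in keratinocytes too. It summed to 7.01 (CT-LCG) and 6.98 (FT-LCG), with AWAT2 and PLIN5, its more specific members, at 0 in both libraries.

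Between the libraries, 976 genes (9.68%) were at least 2-fold higher and 662 (6.56%) at least 2-fold lower in the intermediate cells of CT-LCG than in those of FT-LCG. For many of the leading genes the difference was as large in basal and spinous cells. LOC108633505 stood at 14.9 per 10000 (CT-LCG) and 0.464 (FT-LCG), and its log2 ratio was 5.00 in intermediate, 4.80 in basal and 5.17 in spinous cells. LOC102180443 was at 0.157 and 14.2, with log2 ratios of -6.47, -6.42 and -6.48. S100A8 and S100A9, the pair of calprotectin, were at 10.1 and 3.84 in CT-LCG and at 0.985 and 0.421 in FT-LCG, log2 ratios of 3.35 and 3.19, beside 3.81 and 2.84 in basal and 4.27 and 4.11 in spinous cells. For such genes the libraries differed in all 3 classes, and the values do not belong to the intermediate cells in particular.

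A few genes differed more in the intermediate cells than in either neighbour. GNG11, a G protein subunit, was at 0.514 per 10000 in CT-LCG (0.242 in basal and 0.0484 in spinous cells) and at 0.0149 in FT-LCG, from 10 UMIs (0.0729 and 0.0435), log2 ratios of 5.05 in intermediate, 1.74 in basal and 0.16 in spinous cells. The endothelial markers, whose sums are given above, were also higher than in both neighbours in CT-LCG and lower than in both in FT-LCG. Of the 92 GNG11 UMIs of CT-LCG, which lay in 18 cells, 2 were in the 1 cell with 3 or more endothelial marker UMIs, and the level without that cell was 0.504. KRT19, a keratin of the hair follicle, was at 0.0224 in CT-LCG, from 4 UMIs, and 0.306 in FT-LCG, a log2 ratio of -3.61 beside -0.84 and -1.80. WNT10A, a Wnt ligand of basal and follicle cells, was at 0.0168, from 3 UMIs, and 0.207, a log2 ratio of -3.41 beside -0.79 and -2.47. MMP3, a matrix protease, was at 0.525 (CT-LCG) and 0.0327 (FT-LCG), a ratio of 3.98 close to that in basal cells, 3.67, and above that in spinous cells, 1.14. With 1 library of each type and single-digit UMIs behind several of these values, whether such differences belong to the fibre types was not tested.

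**Figure D5:**
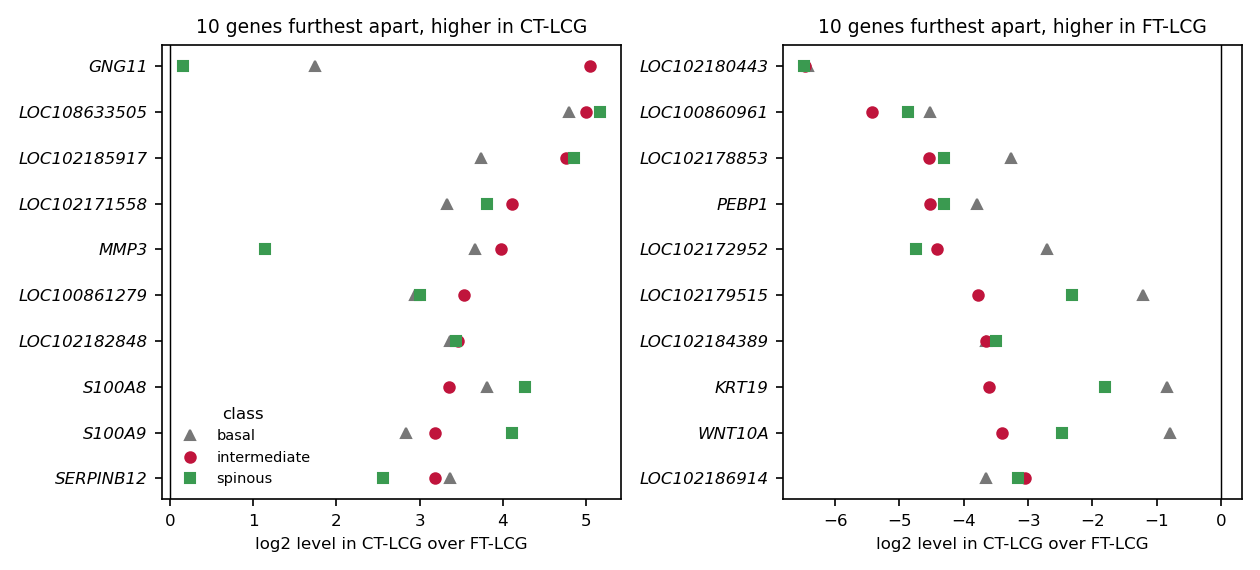
Log2 level in CT-LCG over FT-LCG (x axes) in intermediate, basal and spinous cells. Shown are the 10 genes furthest apart within intermediate cells in each direction, among genes with 100 or more UMIs. GNG11 is at 5.05 in intermediate cells, 1.74 in basal and 0.16 in spinous cells, while LOC102180443 is near -6.4 in all 3.

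The remaining genes of these rules were LOC102185917, LOC102171558, LOC100861279, LOC102182848 and SERPINB12 on the side of CT-LCG, with log2 ratios of 3.19 to 4.76, and LOC100860961, LOC102178853, PEBP1, LOC102172952, LOC102179515, LOC102184389 and LOC102186914 on the side of FT-LCG, with log2 ratios of -5.43 to -3.05. LOC102179515 was at 1.25 per 10000 in the intermediate cells of CT-LCG (basal 18.0, spinous 0.319) and at 17.2 in those of FT-LCG (basal 42.1, spinous 1.59). Its position was 94.8% (CT-LCG) and 61.6% (FT-LCG), and its log2 ratio to spinous cells was 1.97 and 3.43. The gene names are those of the deposited features, and a name that starts with LOC stands for a gene without a symbol there.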

How the data were processed

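The authors made counts of UMIs per gene and barcode with Cell Ranger 3.0.2 and deposited them without normalization, both libraries in 1 matrix of 27137 features and 17299 barcodes. The genome builds in the submitters' notes are human and mouse, and the build that was used for goat is not given in the sources used here. Kept cells and their library came from a second deposited table, after a minimum of genes per cell set by the authors, whose notes name Seurat 3.1.1. The UMIs of kept cells ran from 729 to 172185 (CT-LCG) and from 630 to 190503 (FT-LCG), with medians of 2314 and 6122.

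Members followed the rule given above. UMIs were summed over the cells of a class in a library and set per 10000, with 0.5 UMI added for log2 ratios. Intervals are exact Poisson and Clopper-Pearson intervals at 95%. A gene needed 50 UMIs over the 3 classes in each library. Calls were folds of 2 (1.5 against both neighbours) in both libraries, without a test, since the cells were chosen on the same counts and each type had 1 library. The members and the 26 gene lists were chosen with earlier results of these data known. Named were the genes of the rule and LY6D, up to 6 listed genes past the fold per list by UMIs, and, at 100 or more UMIs, the 10 furthest each way against basal, against spinous and between libraries, the 10 furthest above and 5 below both neighbours. Levels of other listed genes, the place between basal and spinous cells and the KRT79 cells were added after the data had been seen. No doublet caller was run. Alternatives were the mean over cells, cells thinned to 3000 UMIs, the deepest 10% of cells left out, a share of 40% to 65%, at least 6000 UMIs, no cells with markers of other types, 10% free RNA subtracted, gene floors of 20 and 200 UMIs, no KRT79 cells, and each library alone. The profile subtracted as free RNA was that of the barcodes that were not kept, which failed quality control as cells. Of the list genes, 34 symbols were not analysed here. The fold step, for intermediate against basal cells, was tested on simulated sums of UMIs with known folds and counting error only. The other steps were not tested on simulated data. Python 3.11.15, numpy 2.4.6, scipy 1.17.1, pandas 2.3.3 and matplotlib 3.10.9 were used.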

Additional observations from a re-analysis of the deposited data

Results flagged for a closer look

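LY6D lay on opposite sides of basal cells in the libraries. Its log2 level in intermediate over basal cells was 0.38 (CT-LCG) and -0.09 (FT-LCG), and with 1 library of each fibre type the difference was not tested. The value in FT-LCG turned to 0.19 without the KRT79 cells, which were 20.1% of its intermediate cells and 6.15% of those in CT-LCG.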

How the results depend on the processing

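The counts of genes at least 2-fold apart from basal or spinous cells stayed within 1.5 times their values under several settings. These were the mean over cells, thinned cells, the narrower share window and deeper cells, and the removal of some cells. The cells removed were the deepest, those with other types' markers or the KRT79 cells. The genes themselves changed more than the counts. In thinned cells, 123 of the 216 genes higher and 64 of the 126 lower than in basal cells were shared. Against spinous cells, 205 of the 332 higher and 188 of the 285 lower were shared. Counts beyond both neighbours depended on the setting. Genes above both and below both (18 and 15) became 59 and 40 in thinned cells, of which 4 and 5 were shared, 38 and 33 with a share of 40% to 65%, 30 and 23 with 10% free RNA subtracted, 42 and 28 with a floor of 20 UMIs and 5 and 3 with 200. Without KRT79 cells 8 genes were above both. With free RNA subtracted 551 genes were higher than in spinous cells. The floor of 20 gave 240 genes lower than in basal and 596 higher than in spinous cells, and the floor of 200 gave 137 higher and 40 lower than in basal and 99 higher than in spinous cells. Thinning gave 1713 genes higher in CT-LCG. Each library alone gave 398 to 522 genes higher and 280 to 470 lower than in basal cells, 596 to 677 higher and 403 to 626 lower than in spinous cells, 78 to 254 above both and 74 to 297 below both. The share of gated cells was 5.01% (CT-LCG) and 6.27% (FT-LCG) with the narrower window, and 10.8% in FT-LCG without KRT79 cells. Without KRT79 cells LY6D against basal cells in FT-LCG turned to 0.19. In CT-LCG alone KRT79 above basal and above both, capped by this removal, turned to -0.11 (FT-LCG 0.50), CST6 to -0.23 (1.53), SLC40A1 to -1.96 (0.81) and SLC39A8 to -0.28 (0.92). In FT-LCG alone ADTRP below both turned to 1.29 (CT-LCG -0.89), and to 0.58 without the deepest cells (-0.10). PTPRZ1 turned to 0.61 in thinned cells of CT-LCG (FT-LCG -1.28). The settings without KRT79 cells and with each library alone were chosen after seeing the data. The causes were not tested, apart from the removal of the KRT79 cells themselves and the number of genes a floor leaves. No paired analysis was possible because the result comes from no test and each type has 1 library.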
